A study of Homo sapiens with 7 samples.

Results

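Transcript levels of 9 transcription factors that set intestinal identity, or the choice between secretory and absorptive fate, were described in HCT116, an established human colon adenocarcinoma cell line. The factors are CDX1, CDX2, HNF4A, GATA4, GATA6, ATOH1, SOX9, ELF3 and HES1. They were chosen by name and function, not by their values, but with earlier results of these data known. Of the 9, 8 had a value among the 20423 genes of the expression table, and ATOH1 was not analysed here. The study behind the data mapped piggyBac transposon insertions in HCT116 cells, made by a fusion of the transposase with the zinc finger factor SP1 in 2 libraries and by the wild-type transposase in 3 libraries. It also holds 1 SP1 ChIP-seq sample and 1 RNA-seq library from polyA RNA of the same line, which is the library described here. The labels give the same culture medium for every sample and name G418 for the selection of transposed cells, but do not say whether the cells of the RNA library had been selected. HCT116 is a single tumour-derived line and holds no normal intestinal cells to set beside it.

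The intestinal epithelium is renewed from crypt stem cells, whose progeny become absorptive cells or one of several secretory types. CDX1 and CDX2 are homeodomain factors that give the gut tube its intestinal identity, and HNF4A and the GATA zinc finger factors act with them on genes of digestion and absorption. Within the crypt, Notch signalling turns on HES1, which represses ATOH1, the factor required for secretory cells. SOX9 marks crypt progenitors and is needed for Paneth cells, and ELF3 is an epithelial ETS factor that acts in the maturation of the gut lining. Much of this is known from mice.

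The sequence just before the start is shown for 4 of these genes, those with an entry in the sequence table and a level of at least 1 RPKM, the length-scaled unit of expression explained with the levels. The sequences are the 250 bases upstream of the annotated start in RefSeq on GRCh38.p14, written 5′ to 3′ in the direction of transcription. Entries for 6 of the 9 factors were used here, HNF4A with 2 starts. This count does not show how many of the 9 have an entry at all. The entries printed are HES1 at chr3:194135898-194136147 on the plus strand, CDX2 at chr13:27969316-27969565 on the minus strand and ELF3 at chr1:202010337-202010586 on the plus strand. The starts of HNF4A follow windows at chr20:44355449-44355698 and at chr20:44400989-44401238, both on the plus strand. Capitals mark letters that match the GC box GGGCGG, the CCAAT box, the TATA box TATAAA or GTGNGAA, which is within the site of the Notch partner RBPJ, each on either strand.
HES1: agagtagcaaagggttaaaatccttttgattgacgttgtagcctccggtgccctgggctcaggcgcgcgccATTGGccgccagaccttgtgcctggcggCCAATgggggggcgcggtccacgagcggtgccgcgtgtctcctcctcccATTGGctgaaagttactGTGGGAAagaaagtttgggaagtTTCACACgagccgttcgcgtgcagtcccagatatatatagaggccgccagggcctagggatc
CDX2: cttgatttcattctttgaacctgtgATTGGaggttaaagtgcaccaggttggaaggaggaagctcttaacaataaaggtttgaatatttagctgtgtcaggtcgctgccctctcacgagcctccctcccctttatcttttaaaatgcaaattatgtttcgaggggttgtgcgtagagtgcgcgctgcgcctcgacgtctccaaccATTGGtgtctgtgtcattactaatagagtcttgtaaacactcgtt
ELF3: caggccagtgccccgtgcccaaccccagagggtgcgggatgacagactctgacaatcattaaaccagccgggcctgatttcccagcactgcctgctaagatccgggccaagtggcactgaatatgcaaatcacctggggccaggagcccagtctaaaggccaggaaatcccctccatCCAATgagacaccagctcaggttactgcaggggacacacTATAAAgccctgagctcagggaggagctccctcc
HNF4A, first start: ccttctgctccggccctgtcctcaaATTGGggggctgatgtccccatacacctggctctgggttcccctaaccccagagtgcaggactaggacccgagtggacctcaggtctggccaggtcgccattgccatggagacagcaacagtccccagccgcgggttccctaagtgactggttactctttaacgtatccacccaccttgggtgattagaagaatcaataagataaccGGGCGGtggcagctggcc
HNF4A, second start: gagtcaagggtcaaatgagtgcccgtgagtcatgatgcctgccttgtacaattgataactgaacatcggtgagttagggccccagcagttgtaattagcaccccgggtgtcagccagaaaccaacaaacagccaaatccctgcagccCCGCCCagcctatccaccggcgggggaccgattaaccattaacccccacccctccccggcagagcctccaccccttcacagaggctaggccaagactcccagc

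The HES1 window held 2 matches to GTGNGAA, 85 and 62 bases before the start and on opposite strands, and 3 matches to CCAAT. At least 1 match to GTGNGAA occurred in 11.6% of all 35116 upstream windows of this length, and at least 1 to CCAAT in 32.0%. The shares of windows with 2 or 3 matches were not computed. ELF3 held TATAAA 34 bases before its start, a match found in 10.7% of all windows, and 1 CCAAT. CDX2 held 2 matches to CCAAT, 225 and 45 bases before its start. Each HNF4A window held 1 GGGCGG, the letters of the GC box that SP1 recognises, 18 bases before the first start and 103 bases before the second. None of the windows of HES1, CDX2, ELF3, GATA6 or ATOH1 held GGGCGG, which occurred in 42.6% of all windows. Among genes of the HCT116 table at or above 1 RPKM 65.7% of windows held it, against 38.1% for genes below 1 RPKM. These are matches of letters. The SP1 peaks and the insertions have hg18 positions, no hg18 gene positions were used here, and binding at these starts was not analysed.

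Expression was deposited as RPKM, reads scaled to transcript length and to the mapped reads of the library, so levels can be compared between genes per length. At or above 1 RPKM, a common limit for calling a gene expressed, stood 5 of the 8 measured factors, against 57.0% of all genes. At or above 10 RPKM stood 3 of the 8, against 24.4% of all genes. Limits of 0.5 and 3 RPKM gave 6 and 5 of the 8, against 62.5% and 44.2% of all genes. The factors had a median of 6.75 RPKM and all genes a median of 1.91 RPKM. With 8 genes and 1 library these counts are a description, and the share at or above 1 RPKM was close to that of all genes. There was 1 library, of unknown depth, so none of the levels below carries an error and nothing was tested. For no neighbouring pair in the order of levels can it be said whether the difference exceeds the spread between libraries.

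**Figure D1:**
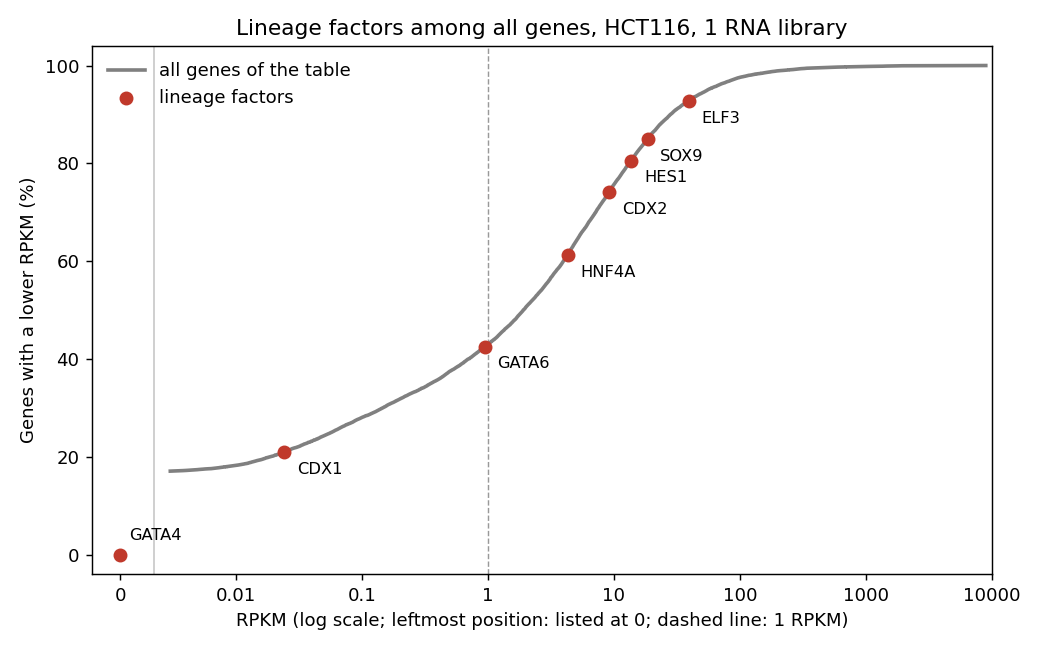
RPKM of the 8 measured lineage factors (red points, log scale) against the percentage of all 20423 genes with a lower RPKM, with the grey curve for all genes. ELF3, SOX9, HES1, CDX2 and HNF4A lie right of the dashed line at 1 RPKM, GATA6 lies just left of it at 0.945, CDX1 lies far to the left at 0.0242, and GATA4 is listed at 0.

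The factors of intestinal identity spanned a wide range, with CDX2 and HNF4A above the median of all genes and GATA6, CDX1 and GATA4 below it. CDX2, the main determinant of intestinal identity, stood at 9.19 RPKM, rank 5282, above 74.1% of genes and 4.82 times the median of all genes. CDX1, its paralogue, stood at 0.0242 RPKM, above 21.0% of genes, of which most are the genes listed at 0. The ratio of CDX2 to CDX1 was 380, a value that rests on the very low level of CDX1 and has no error. On the scale of log2(RPKM + 1) CDX2 exceeded CDX1 by 3.32, and on that of log2(RPKM + 0.1) by 6.23. HNF4A, a nuclear receptor of absorptive cells, stood at 4.30 RPKM, rank 7905 and above 61.3% of genes. It was 2.26 times the median of all genes, but 0.550 times the median of the genes at or above 1 RPKM. The table gives 1 value for HNF4A, so transcripts from its 2 starts cannot be told apart. In RefSeq on GRCh38.p14 the antisense gene HNF4A-AS1 overlaps HNF4A, and the strand rule of the read counting is unknown here. Its paralogue HNF4G stood at 0.482 RPKM, so that HNF4A was 8.93 times as high.

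Of the GATA factors of the gut, GATA6 and GATA4 stood below the median of all genes, and GATA5 was not analysed here. GATA6, which acts in the colon as well as the small intestine, stood at 0.945 RPKM, rank 11745, above 42.5% of genes and just under the limit of 1 RPKM. GATA4, a factor of the proximal small intestine, was listed at 0, as were 3398 genes (16.6%) of the table. A listed 0 need not be an absence of transcript: of 20 genes that most cells express, chosen after the table had been seen, 1 (YWHAZ) was listed at 0. Of the 5 GATA genes with a value the highest was GATA2, better known from blood cells, at 5.56 RPKM, 5.88 times the level of GATA6. GATA3 stood at 0.811 and GATA1 at 0.0870 RPKM.

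ELF3, SOX9 and HES1 had the 3 highest levels. ELF3 stood at 39.2 RPKM and rank 1482, above 92.7% of genes and 20.5 times the median of all genes. SOX9 followed at 18.6 RPKM, rank 3071, above 85.0% of genes. HES1, the Notch-induced repressor, stood at 13.8 RPKM, rank 3968, above 80.6% of genes. In order of level the measured factors were thus ELF3, SOX9, HES1, CDX2, HNF4A, GATA6, CDX1 and GATA4. In RPKM, ELF3 was 2.11 times SOX9, SOX9 was 1.35 times HES1 and HES1 was 1.50 times CDX2. CDX2 was 2.14 times HNF4A, and HNF4A was 4.55 times GATA6. The factor that HES1 opposes, ATOH1, has no value here, so the balance of the pair cannot be given. Its relatives ATOH7 and ATOH8 stood at 0.0291 and 0.154 RPKM.

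Each factor was set beside its own family, whose members share its DNA-binding domain. ELF3 was the highest of 6 ELF and EHF genes and held 61.6% of their summed RPKM. ELF4 stood at 10.3, EHF, the other epithelial member of this group measured above 1 RPKM, at 5.66, ELF1 at 4.92 and ELF2 at 3.43 RPKM. SOX9 was the second of 15 SOX genes with a value. SOX12 stood above it at 22.2 RPKM, 1.20 times the level of SOX9. SOX4, which is active in many progenitors, stood at 10.0, SOX13 at 8.67, SOX8 at 2.39, SOX18 at 1.84 and SOX15 at 1.23 RPKM. The other 8 lay below 1 RPKM, so that 7 of the 15 stood at or above it, against 57.0% of all genes. SOX2, the counterpart of CDX2 in the stomach, stood at 0.0171 RPKM.

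HES1 was the third of 9 HES and HEY genes with a value. HES4 stood at 68.2 RPKM, 4.94 times the level of HES1, and held 64.4% of the summed RPKM of this family, against 13.0% for HES1. HES6, which is known as an antagonist of HES1, stood at 13.8 RPKM and thus level with HES1, at a ratio of HES1 to HES6 of 0.996. HEYL stood at 5.79 and HES2 at 3.15 RPKM, and HEY1, HES7, HES3 and HEY2 stood below 1 RPKM. At or above 1 RPKM stood 5 of the 9, close to the 57.0% of all genes.

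**Figure D2:**
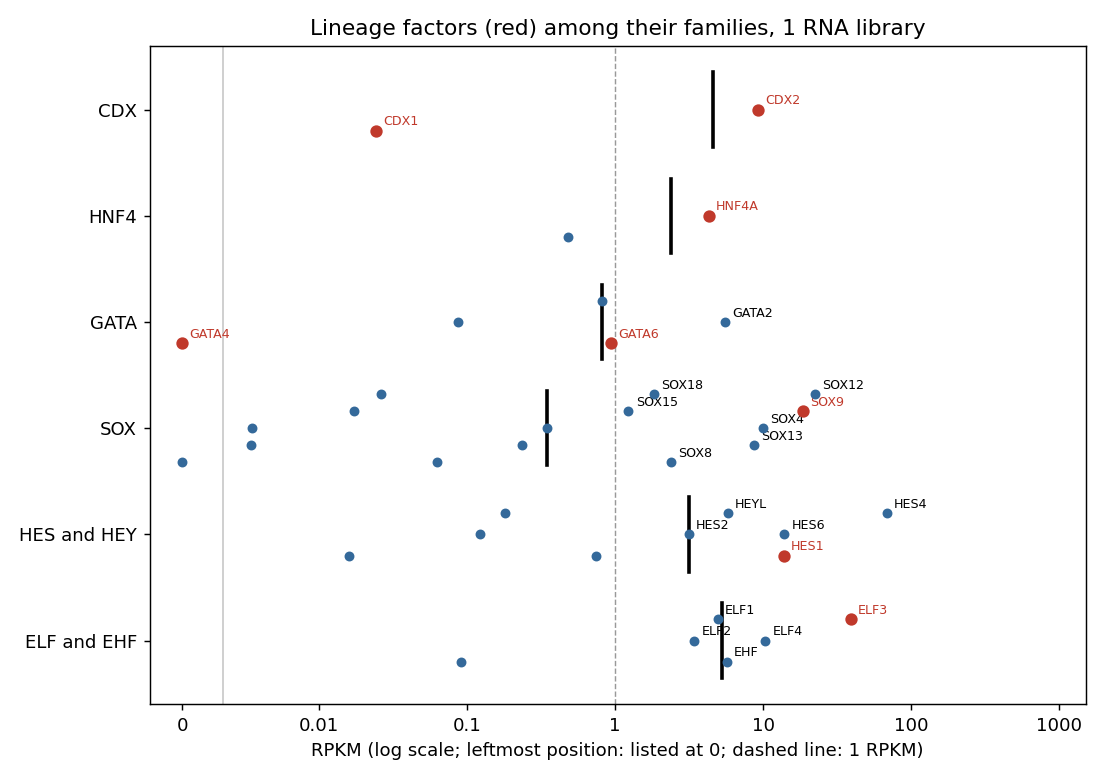
RPKM (log scale) of the lineage factors (red) and their family members (blue), 1 row per family, with black bars at family medians and names for red points and genes at or above 1 RPKM. ELF3, CDX2 and HNF4A are the highest of their families, SOX9 lies just below SOX12, HES1 lies level with HES6 and below HES4, and GATA6 lies below GATA2.

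Notch ligands, receptors and their nuclear partners act upstream of HES1. Of 13 such genes, 9 stood at or above 1 RPKM, against 57.0% of all genes, and their median was 5.84 RPKM, against 1.91 RPKM over all genes. Among the ligands JAG2 stood at 19.9, JAG1 at 5.84 and DLL1, the ligand of secretory precursors, at 1.57 RPKM. DLL4 stood at 0.590 and DLL3 at 0.0198 RPKM. The receptors NOTCH2, NOTCH1 and NOTCH3 lay close together at 9.79, 9.69 and 9.35 RPKM, and NOTCH4, known from endothelium, stood at 0.283 RPKM. RBPJ, the DNA-binding partner of the receptors, stood at 10.6 RPKM and its coactivator MAML1 at 11.0 RPKM, with MAML3 at 1.20 and MAML2 at 0.922 RPKM. HES1 thus lay above each of the receptors and nuclear partners and below JAG2.

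A further list held factors that act downstream of ATOH1 or in endocrine cells. Of 7 with a value, 2 stood at or above 1 RPKM, against 57.0% of all genes, and their median was 0.385 RPKM, against 1.91 RPKM over all genes. The 2 were BHLHA15, a factor of secretory cell architecture, at 6.38 RPKM and GFI1, a repressor that keeps secretory cells from endocrine fate, at 4.23 RPKM. SPDEF, the goblet cell factor, stood at 0.385, PAX6 at 0.722, NKX2-2 at 0.0205 and NEUROD1 at 0.0163 RPKM, and PAX4 was listed at 0. NEUROG3 and INSM1 were not analysed here.

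Other factors of gut epithelial identity ranged between 0.0887 and 27.5 RPKM. Of 11 with a value, 4 stood at or above 1 RPKM, against 57.0% of all genes, and their median was 0.828 RPKM, against 1.91 RPKM over all genes. The Krüppel-like factors KLF4 and KLF5 led at 27.5 and 21.9 RPKM, and both lay between ELF3 and SOX9. EHF followed at 5.66 and FOXA3 at 4.18 RPKM. ONECUT2 stood at 0.968, PDX1 at 0.828, HNF4G at 0.482, FOXA1 at 0.372, CREB3L3 at 0.229, ISX, a CDX2 target, at 0.101 and FOXA2 at 0.0887 RPKM.

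**Figure D3:**
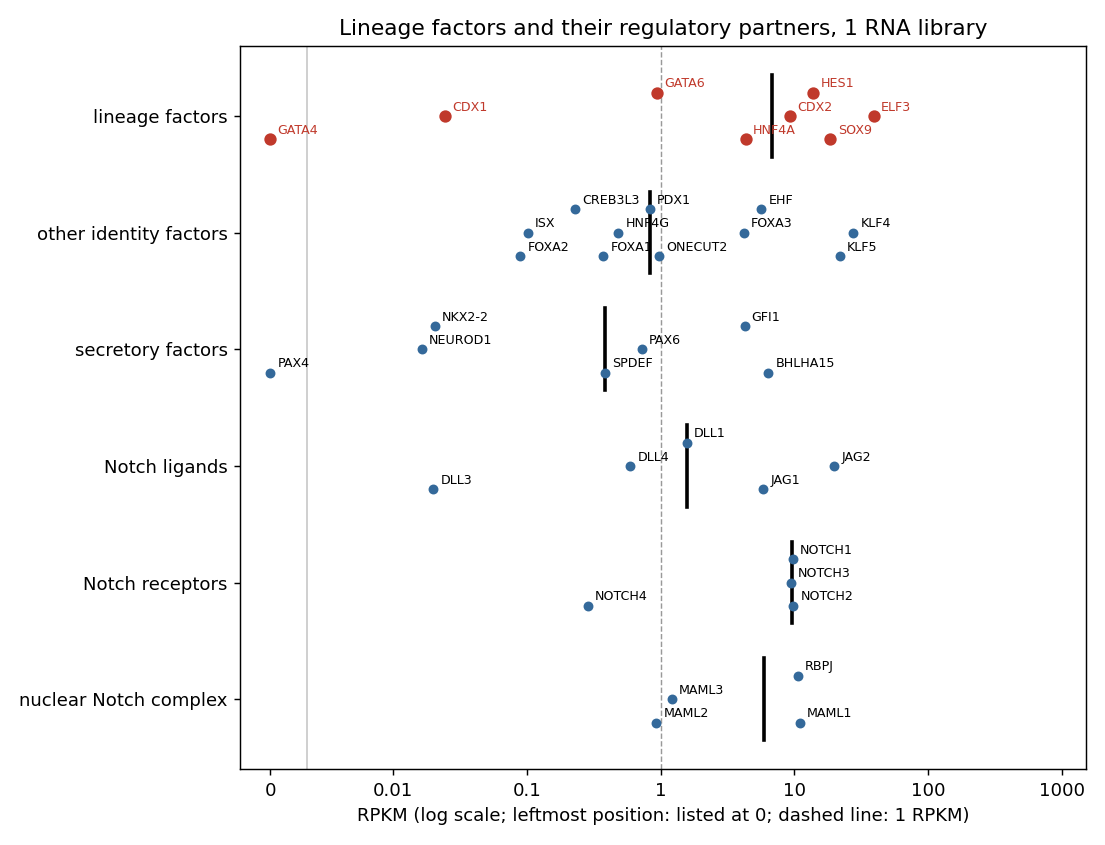
RPKM (log scale) of the lineage factors (red) and of their regulatory partners (blue), 1 row per list, with black bars at list medians. The receptors NOTCH1 to NOTCH3 lie together near 10 RPKM, KLF4 and KLF5 lie between SOX9 and ELF3, and 5 of the 7 secretory factors lie left of the dashed line at 1 RPKM.

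Genes of mature intestinal cells were nearly all below 1 RPKM in the library in which CDX2 stood at 9.19 and HNF4A at 4.30 RPKM. Some of these genes are known targets of CDX2, and a link between the levels was not tested. Of 35 absorptive, goblet, enteroendocrine and Paneth cell genes with a value, 1 stood at or above 1 RPKM and 11 were listed at 0, against 57.0% and 16.6% of all genes. That gene was CA2, a carbonic anhydrase, at 15.2 RPKM. Of the 18 absorptive genes the next highest were KRT20 at 0.238 and APOA1 at 0.143 RPKM, and FABP1, SI, ALPI, APOB, GUCY2C and MS4A12 were listed at 0. SI, the brush border sucrase, and GUCY2C, the guanylin receptor, are classical targets of CDX2. CDH17, another, stood at 0.0464 RPKM, MTTP and VIL1 at 0.0524 and 0.0313 RPKM. Of 7 goblet cell genes FCGBP at 0.628, MUC2, also a CDX2 target, at 0.159 and SPINK4 at 0.117 RPKM were highest, and TFF3, CLCA1 and REG4 were listed at 0. The 7 enteroendocrine genes were led by SYP at 0.740, PYY at 0.245 and TPH1 at 0.189 RPKM, with CHGB listed at 0. The 3 Paneth cell genes with a value were PLA2G2A at 0.0458, LYZ at 0.0283 and ITLN2, listed at 0.

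Of 10 intestinal stem cell genes, which like SOX9 belong to the base of the crypt, 6 stood at or above 1 RPKM, close to the 57.0% of all genes, and their median was 1.59 RPKM, against 1.91 RPKM over all genes. The Wnt feedback ligase RNF43 stood at 14.4, the ephrin receptor EPHB2 at 6.93 and PROM1 at 4.74 RPKM, all below SOX9. ZNRF3 stood at 2.96, LRIG1 at 1.83 and AXIN2 at 1.36 RPKM. Below 1 RPKM stood MYB at 0.482, TNFRSF19 at 0.0874 and SMOC2 at 0.0137 RPKM. LGR5, the receptor by which crypt stem cells are recognised, was listed at 0. ASCL2 and OLFM4 were not analysed here.

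The label calls the line an adenocarcinoma, a tumour of glandular epithelium, and general epithelial genes were high in the same library. All 7 general epithelial genes stood above 10 RPKM, against 24.4% of all genes at or above it. They were led by KRT19 at 543, KRT8 at 378 and KRT18 at 268 RPKM, with CDH1 lowest at 17.0 RPKM. Summed RPKM of lists for other tissues and cell types was 0.928 for 5 gastric, 1.96 for 5 hepatocyte, 1.01 for 5 squamous and 0.356 for 4 endothelial genes. For lists of mature intestinal cells it was 0.947 for 7 goblet, 1.48 for 7 enteroendocrine and 0.0741 for 3 Paneth cell genes. The 18 absorptive genes summed to 15.9 RPKM, of which CA2 gave 15.2. The gastric list was led by MUC6 at 0.758, CLDN18 at 0.153 and SOX2, with TFF1 and GKN2 listed at 0. The hepatocyte list was led by SERPINA1 at 1.57, TF at 0.200 and ALB at 0.191 RPKM, with TTR and FGB listed at 0, and the squamous list by KRT13 at 0.882, KRT14 at 0.0578 and KRT5 at 0.0526 RPKM, with TP63 listed at 0. The fibroblast list summed to 14.6 RPKM over 5 genes, of which COL1A1 gave 14.5, with PDGFRB at 0.135, COL1A2 at 0.0277 and DCN listed at 0. The leukocyte list summed to 8.94 RPKM over 6 genes, of which CD68 gave 8.65, with CD14 at 0.218, LAPTM5 at 0.0574 and the defining genes PTPRC and CD3E listed at 0. KDR, VWF and PECAM1 of endothelium stood at 0.163, 0.146 and 0.0371 RPKM.

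**Figure D4:**
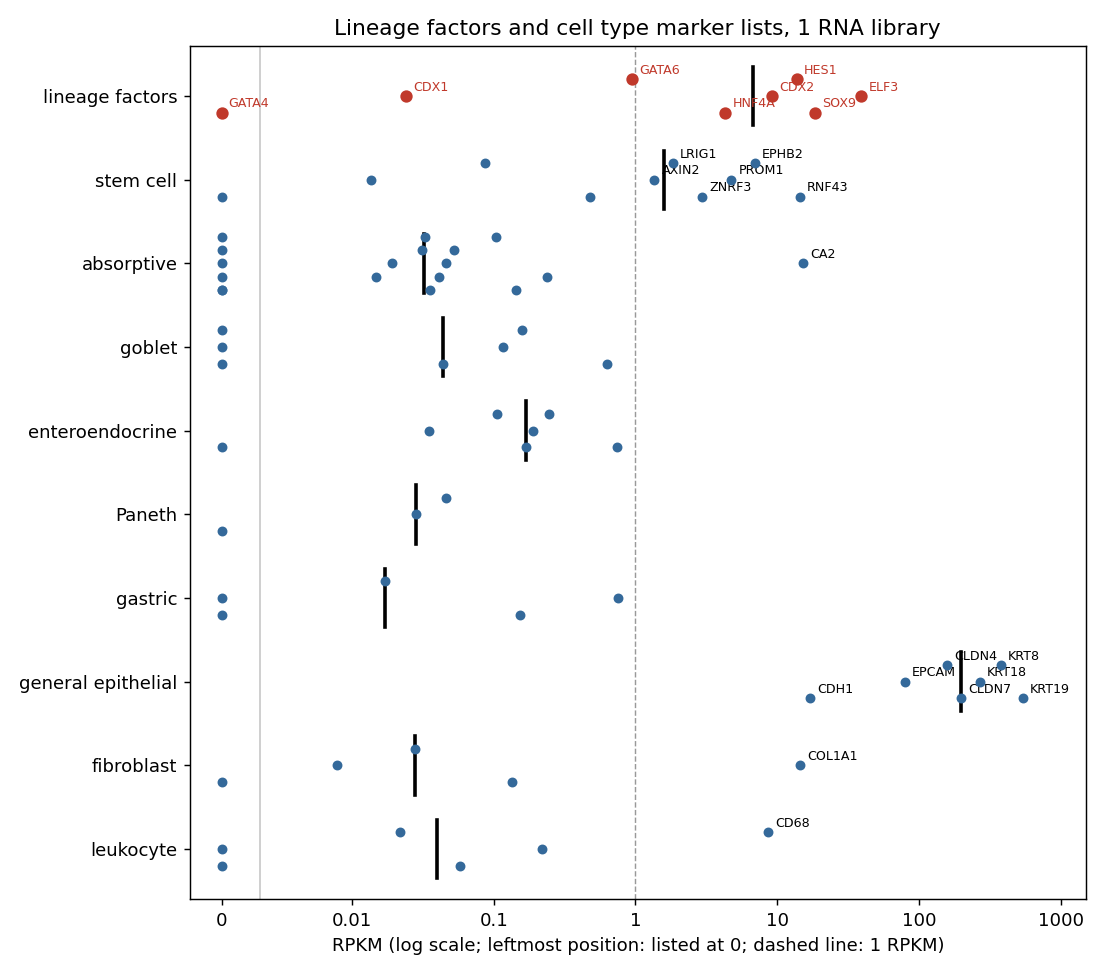
RPKM (log scale) of the lineage factors (red) and of marker lists (blue), 1 row per list, with black bars at list medians and names for red points and genes at or above 1 RPKM. The lineage factors, the stem cell list and the general epithelial list have medians above 1 RPKM, and in the 4 lists of mature intestinal cells only CA2 lies right of the dashed line.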

How the data were processed

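Gene expression of 1 HCT116 library from polyA RNA was deposited by the authors as RPKM, 1 value for each of 20423 RefSeq gene symbols of hg18. Per the deposited readme, reads were aligned with TopHat and RPKM calculated with Cufflinks, whose version was 1.1.0 per the submitters' processing notes. Depth, read length and strandedness are not given in the sources at hand. The members and lists were chosen with earlier results of these data known.

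Ranks run from the highest RPKM, and a percentage of genes lower counts all genes of the table. Genes were matched by symbol: 151 of 180 listed genes had a value, and the others were not analysed here. Named by rule were all members, family genes at or above 1 RPKM, the regulator lists except genes not reported here, and the 3 highest genes of each marker list with those listed at 0. CDH17, MTTP, VIL1, CDH1, the remaining stem cell genes and the family genes below 1 RPKM were named after their values were seen. With 1 library no gene has a pattern that could be likened to a member's.

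Upstream windows of 250 bases were read from RefSeq sequences on GRCh38.p14 and searched for exact matches. Ranking and matching were tested on simulated data. Python 3.11.15 and pandas 2.3.3 were used. Insertions and SP1 peaks have hg18 positions and were not used, since no hg18 gene positions were at hand, and protein sequences were not used here. Other thresholds, backgrounds and pseudocounts were tried.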

Additional observations from a re-analysis of the deposited data

How the results depend on the processing

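At a threshold of 10 RPKM 3 of the 8 factors were counted, against 5 at 1 RPKM, 6 at 0.5 RPKM and 5 at 3 RPKM. Of all genes, 24.4% were counted at 10 RPKM, 57.0% at 1 RPKM, 62.5% at 0.5 RPKM and 44.2% at 3 RPKM. The median of the factors was 9.19 RPKM without GATA4, which is listed at 0, against 6.75 RPKM with it. With the longer GC box GGGGCGGGG 0 of the 7 upstream windows used for the factors held a match, against 15.1% of all 35116 windows. With GGGCGG 2 of the 7 held a match, both of HNF4A, against 42.6% of all windows. Among genes not listed at 0, ELF3 stood above 91.3% and CDX1 above 5.24% of genes. The 30 log2 differences recomputed with a pseudocount of 1 or 0.1 could not change sign, since both genes gain the same amount. Their size could change: for CDX2 against CDX1 it was 8.57 without a pseudocount, 3.32 with 1 and 6.23 with 0.1. Of 78 counts of other lists recomputed at other thresholds, 23 lay over 1.5 times from the count at 1 RPKM or changed to or from 0. Some of these lists share genes. No symbol was repeated in the table, so the planned sum and mean over repeated symbols gave no value. No paired analysis was possible because the levels come from 1 library and from no test. The unknown depth limits the low levels most: how many reads lie behind CDX1, or could have been missed for GATA4, cannot be given.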
